A study of Mus musculus with 6 samples.

Results

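The cells described here are the C1q-low myeloid cells of the mouse fetal gonad, cells with myeloid transcripts and few or none of the C1q transcripts of macrophages. They were chosen by their counts: a barcode that passed the quality filters was a member when it held at least 2 UMIs (unique molecular identifiers, each standing for 1 captured transcript) of Tyrobp, at least 2 of Fcer1g and fewer than 5 of C1qa, C1qb and C1qc together. This selected 290 of the 39350 cells of all 6 libraries. A further 334 cells met the Tyrobp and Fcer1g minimum with 5 or more C1q UMIs, and are called C1q-high macrophages. Tyrobp (the adaptor DAP12) and Fcer1g (the Fc receptor gamma chain) carry the signalling motifs of many receptors of myeloid cells, and C1q is the complement component made by tissue macrophages.

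The study dissociated gonad pairs of E15.5 C57BL/6 embryos into single cells, which were frozen, thawed and captured with the 10x Genomics protocol. There were 2 libraries, described as biologically independent, of each of control XY (testis, Amh+/+; Inhbb+/+), dKO XY (Amh -/-; Inhbb -/-, lacking AMH and the beta B subunit of activin B) and control XX (ovary, Amh+/+; Inhbb+/+). Both genes were deleted in the whole embryo, so an effect inside the gonad and one elsewhere in the embryo cannot be told apart, and the number of embryos in a library is not given in the sources used here. AMH and activin B are hormones of Sertoli cells, and the comparison of dKO XY with control XY asked what the gonad does without them.

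Fetal myeloid cells arise in the yolk sac and, later, in the fetal liver. Granulocytes ripen from progenitors that make the primary granule proteins (elastase, myeloperoxidase, proteinase 3) to cells that make the secondary and tertiary granule proteins (lactoferrin, cathelicidin, gelatinase), and both they and monocytes carry the calcium-binding pair S100a8 and S100a9, known together as calprotectin. Monocytes carry Ly6c2 and the chemokine receptor Ccr2 and can become macrophages in tissue, while mast cells and basophils store proteases and share the high-affinity IgE receptor, of which Fcer1g is a chain.

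The members made up 1.39%, 0.689%, 1.07%, 0.456%, 0.131% and 0.335% of the passed cells of control XY 1 and 2, dKO XY 1 and 2 and control XX 1 and 2, from 95, 59, 87, 26, 7 and 16 cells. The means were 1.04% ± 0.498 in control XY, 0.762% ± 0.432 in dKO XY and 0.233% ± 0.144 in control XX (SD, n = 2 libraries). The 2 XY groups overlapped (two-sided exact permutation test, p = 0.667), and both control XX libraries lay below every XY library. Of the cells that met the Tyrobp and Fcer1g minimum, 66.4% and 51.8% were C1q-low in control XY, against 45.1% and 26.8% in dKO XY and, in control XX, 25% and 32.7%. Both control XY values were above both dKO XY values, which gave the smallest p that 2 against 2 libraries allow (exact permutation test, p = 0.333). The order of the 2 XY groups in the share of all cells turned when 1 library was left out (values in the closing section).

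The boundary fell in a sparse range. Of the members, 269 held no C1q UMI, 13 held 1, 4 held 2, 4 held 3 and none held 4, while just outside it 4 cells held 5, 3 held 6, 3 held 7 and 4 held 8. Passed cells held between 118475468 and 221675316 UMIs per library, and the median member held between 16136 and 25569. Among all passed cells 175 barcodes occurred in more than 1 library, as did 3 member barcodes, none of them in 2 members. All 23 control XX members held Xist and no Y-linked UMI, 134 of 154 control XY members held a Y-linked UMI and none held Xist, and 109 of 113 dKO XY members held a Y-linked UMI while 1 held Xist without one. Amh over the members was 10.9 and 26.8 CPM (counts per 1000000 UMIs of those cells) in control XY, 7.15 and 10.8 in the dKO libraries and 0 in both control XX libraries, beside 104 and 176, 9.06 and 11.2, and 0.828 and 0.486 in cells other than myeloid cells. Inhbb over the members was 3.63 and 2.06 CPM in control XY, against 3.01 and 4.06 in dKO XY, too few UMIs to show the deletion. In the other cells it was 19.6 and 31.6 CPM in control XY, against 11.9 and 17.97 in dKO XY and, in control XX, 24.6 and 8.33, so Inhbb showed the deletion weakly and both genes kept UMIs in dKO XY.

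The name monocytes and granulocytes fitted most of the members but not all. Clustered on their variable genes and named from marker lists, they held 103 monocyte-like cells (35.5% of members, exact 95% binomial interval 30.0 to 41.3), 31 neutrophil-like cells (10.7%, 7.38 to 14.8) and 21 granulocyte progenitor-like cells (7.24%, 4.54 to 10.9). Another 23 were mast cell-like (7.93%, 5.09 to 11.7), 14 basophil-like (4.83%, 2.66 to 7.97) and 18 dendritic cell-like (6.21%, 3.72 to 9.63). A cluster of 53 cells (18.3%, 14.0 to 23.2) was led by gonadal transcripts such as Cyp17a1, Dcn and Col1a1 beside its myeloid genes, and 27 cells (9.31%, 6.23 to 13.3) stayed unnamed. In these 27 cells 6 of 9 monocyte markers passed (Lyz2, Ly6c2, Ccr2, F13a1, Fn1 and Hp), but no monocyte marker was among the 10 leading genes, which were cell cycle genes and lymphoid genes such as Trbc2 and Tcf7, with a UMI in 25.9% and 29.6% of the cells. These intervals cover counting error only.

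Doublet scores set the classes apart. Of the cells among the top 8% of doublet scores in their library there were 33 of 53 in the cluster with gonadal transcripts, 16 of 23 mast cell-like, 8 of 18 dendritic cell-like, 12 of 27 unnamed, 6 of 21 progenitor-like and 4 of 14 basophil-like cells, but 6 of 103 monocyte-like and 2 of 31 neutrophil-like cells. The median cell held 39902 UMIs in the cluster with gonadal transcripts, 36212 in the progenitor-like class, 27822 in the mast cell-like class, 19291 in the neutrophil-like class and 15602 in the monocyte-like class. The part of doublets in the first of these clusters was not tested.

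The classes were spread unevenly over the libraries. Monocyte-like cells numbered 40 and 18 in control XY, against 29 and 8 in dKO XY and, in control XX, 1 and 7. Neutrophil-like cells numbered 10 and 6, 6 and 3, and 6 and 0, so that they were 6 of the 7 members of control XX 1 and none of the 16 of control XX 2, where a count of 0 allows a share of up to 18.8% (3 counts, with an exact upper limit of 20.6%). Progenitor-like cells numbered 9 and 4 in control XY, against 5 and 3 in dKO XY, and 0 in both control XX libraries. Neutrophil-like cells took 10.5% and 10.2% of the members in control XY and 6.90% and 11.5% in dKO XY, groups that overlapped (means 10.4% ± 0.252 and 9.22% ± 3.28, SD, n = 2, exact permutation p = 1). They did not overlap without cells with a high doublet score (14.5% and 13.3% against 8.62% and 12.5%) or with cells of more than 1500 genes (20.59% and 13.85% against 11.46% and 13.79%, lower in dKO XY). The gaps were narrow, at 13.3% against 12.5% and 13.85% against 13.79% between the nearest libraries. Mast cell-like cells numbered 3 and 1 in control XY, against 10 and 2 in dKO XY and, in control XX, 0 and 7, basophil-like cells 4 and 7, 2 and 1, and 0 and 0, and dendritic cell-like cells 10 and 4, 3 and 1, and 0 and 0.

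**Figure D1:**
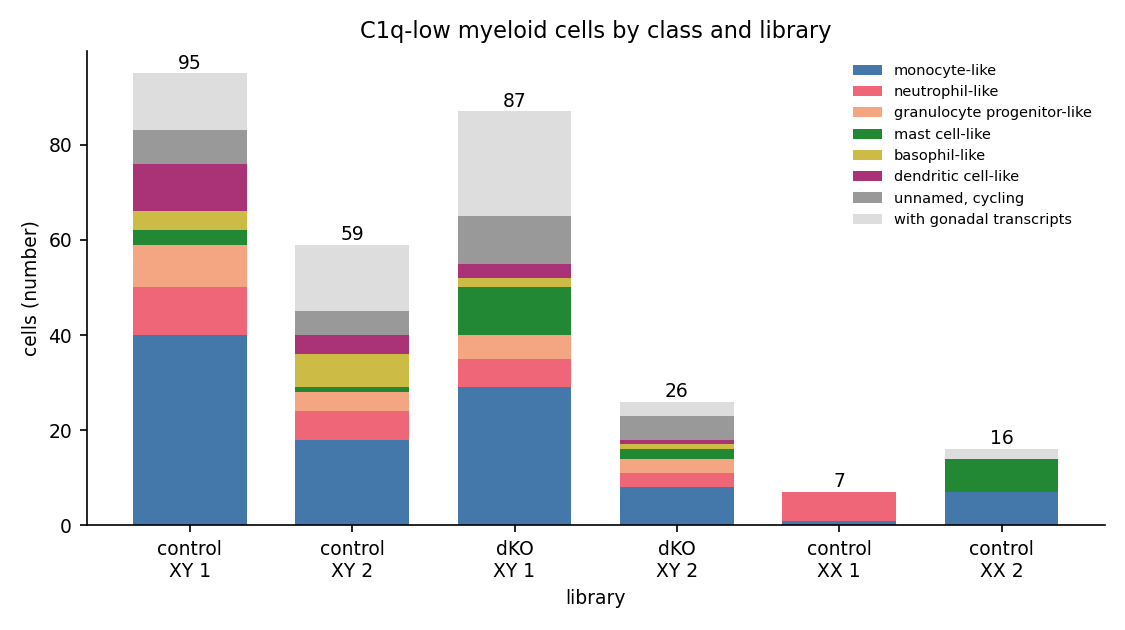
The bars give the number of C1q-low myeloid cells (vertical axis) in each of the 6 libraries, split by class, with the total above each bar. Control XY 1 held 95 members and control XX 1 held 7, of which 6 were neutrophil-like.

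The granulocyte clusters differed in their granule genes. The progenitor-like cluster held the primary granule genes: Elane (neutrophil elastase) at 6604 CPM, Prtn3 (proteinase 3) at 8949, Mpo (myeloperoxidase) at 4293 and Ctsg (cathepsin G) at 2353. In the larger neutrophil-like cluster of 18 cells Elane and Mpo were at 2 CPM and Prtn3 at 27, and in the smaller one of 13 cells all 4 were at 0. Each of these clusters was defined from the same counts, so the levels are a description with no test.

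Secondary granule genes stood in all 3 of these clusters. Camp (cathelicidin) was already at 16040 CPM in the progenitor-like cluster and was at 34360 and 27490 in the neutrophil-like clusters. Ngp (neutrophilic granule protein) was at 4592, 30520 and 34250 CPM and Ltf (lactoferrin) at 631, 6099 and 8526 in the same order. The progenitor-like value of Ngp came from part of the cluster: its cells ran from 0 to 906 Ngp UMIs with a median of 2, and 9 of the 21 held none. Lcn2 (lipocalin 2, which binds bacterial siderophores) was at 2950, 11210 and 15330 CPM. The tertiary granule gene Mmp9 (gelatinase B) was at 0, 99 and 468 CPM, Mmp8 (neutrophil collagenase) at 0, 133 and 770 and Retnlg (resistin-like gamma) at 6, 141 and 1894, so the smaller neutrophil-like cluster held the most of the late genes.

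Of the 3 granulocyte clusters, the smaller neutrophil-like one had the lowest summed level of cell cycle genes. The summed level of the 34 genes of the G2 and M phase list was 7032 CPM in the progenitor-like cluster, 14341 in the larger neutrophil-like cluster and 2456 in the smaller, and that of the 24 genes of the S phase list was 1987, 1212 and 179. Cebpe, the transcription factor of granulocyte maturation, was at 484, 785 and 676 CPM, while Myb and Gfi1, factors of progenitors, were at 145 and 66.6 CPM in the progenitor-like class and at 25.9 and 4.86 over all neutrophil-like cells.

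**Figure D2:**
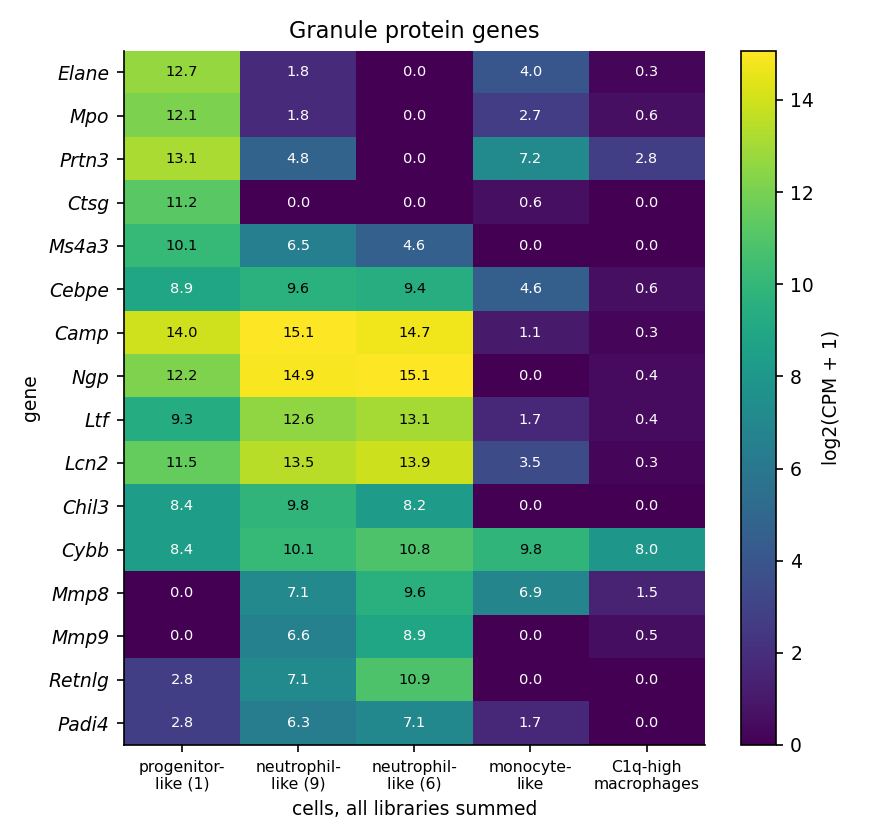
The heat map gives log2(CPM + 1) of 16 genes of granule proteins and granulocyte maturation (rows) in the progenitor-like cluster, the neutrophil-like clusters, the monocyte-like cells and the C1q-high macrophages (columns, all libraries summed). Elane, Mpo, Prtn3 and Ctsg are highest in the progenitor-like column, and Mmp9 and Retnlg are highest in the neutrophil-like cluster of 13 cells.

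The genes with the highest levels in the neutrophil-like cells included S100a8, S100a9 and the stefins. S100a8 and S100a9 lie 26.7 kb from end to end on chromosome 3 (GRCm38 chr3:90668978-90695721), and the stefin A genes, which encode inhibitors of cysteine proteases, lie in 299 kb of chromosome 16. The 250 bases before the start of S100a9 and Ltf are shown, the first as a gene with one of the highest levels in the neutrophil-like cells and the second as a secondary granule gene. They are RefSeq sequences of GRCm38.p6 on the strand of the gene, 5′ to 3′, with capitals at matches to TTGCNNAA, the letters of a C/EBP-type site, on either strand. They lie at chr3:90695722-90695971 (minus strand) and chr9:111019042-111019291 (plus strand).
S100a9: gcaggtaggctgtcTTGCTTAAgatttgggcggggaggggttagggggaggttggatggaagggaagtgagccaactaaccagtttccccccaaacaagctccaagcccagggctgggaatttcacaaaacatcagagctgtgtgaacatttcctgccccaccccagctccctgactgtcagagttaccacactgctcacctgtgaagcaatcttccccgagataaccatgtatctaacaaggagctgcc
Ltf: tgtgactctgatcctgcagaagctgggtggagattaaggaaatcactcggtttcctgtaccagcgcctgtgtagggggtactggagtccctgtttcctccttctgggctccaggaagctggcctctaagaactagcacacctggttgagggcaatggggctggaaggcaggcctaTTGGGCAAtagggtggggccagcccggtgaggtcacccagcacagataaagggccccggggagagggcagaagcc
Each window held these letters once, with the first base 236 bases before the start of S100a9 and 75 bases before that of Ltf. The Ltf window ends inside the first exon as GENCODE draws it (start at 111019271). Of windows not shown, the letters stood in 1 place of Stfa1, in 2 of Ngp and in none of S100a8, and these windows reach into the gene by the GENCODE starts (36276951, 110419747 and 90668978).

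Promoter sequences were found for 10 of 11 granulocyte genes looked up. TTGCNNAA was in 5 of the 10 windows and in 9.55% of the 27025 windows of all listed promoters. The letters GAGGAA, a PU.1-type core, were in 7 of the 10 and in 23.1% of all, and no match of one overlapped a match of the other in the windows shown. The 11 genes were picked with their levels known, and a match of letters is a description of the sequence alone.

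S100a8 and S100a9 together were a large share of single cells. They took a median of 23.6% of a cell's UMIs in the neutrophil-like class (15.4% to 28.3% over its 31 cells) and 9.04% in the progenitor-like class (0% to 22.1%). In the monocyte-like class the median was 0.0493% and the highest cell was at 10%, with 20 of 103 cells at 1% or more. No mast cell-like, basophil-like or dendritic cell-like cell reached 1%, their highest values being 0.0065%, 0.0063% and 0.0168%, and 8 of the 53 cells with gonadal transcripts did. In C1q-high macrophages S100a8 was at most 9.64 CPM in any library and in cells other than myeloid cells at most 11.6 CPM.

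**Figure D3:**
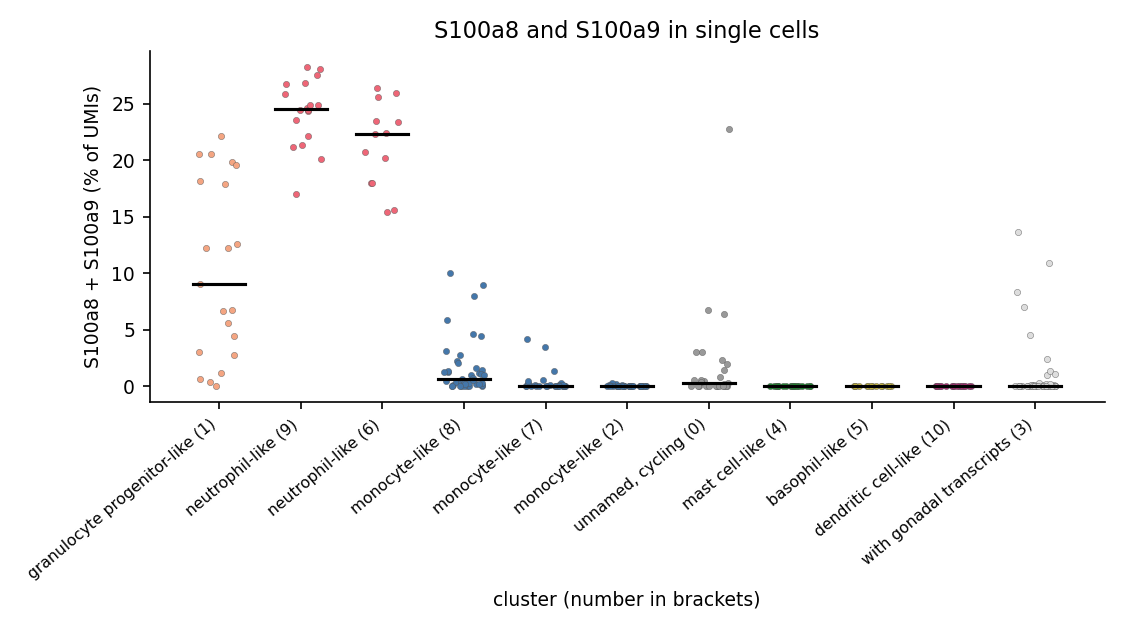
Each point is 1 cell, with the share of its UMIs that were S100a8 or S100a9 (vertical axis, percent) by cluster (horizontal axis), and the bar marks the median. All 31 neutrophil-like cells lie between 15.4% and 28.3%, and the mast cell-like, basophil-like and dendritic cell-like cells lie near 0.

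Within the neutrophil-like class S100a8, S100a9 and Stfa1, markers by which the class was named, were high in every library with such cells. S100a8 was at 111600 and 103800 CPM in control XY, against 92760 and 83210 in dKO XY and, in control XX 1, 117600. S100a9 was at 129200 and 129100, 140100 and 113200, and 131800 CPM. For S100a8 both control XY libraries and the control XX library were above both dKO XY libraries, by a mean of 107700 ± 5515 against 87980 ± 6753 CPM in the XY groups (SD, n = 2), and for S100a9 the groups overlapped. Stfa1 was at 44190 and 37420 CPM in control XY, against 42020 and 29840 in dKO XY and, in control XX 1, 50130, and Stfa3 at 34530 and 24930, 32000 and 29340, and 41900, which overlapped between the XY groups. The stefin A genes are near copies of one another, and how reads were split between them is uncertain. With 3 to 10 cells a library no model was run within this class.

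The granule genes Ngp, Camp and Ltf, also markers by which this class was named, were likewise high in each library. Ngp was at 32260 and 24670 CPM in control XY, against 30950 and 31880 in dKO XY and, in control XX 1, 36610. Camp was at 33590 and 32050, 30300 and 26430, and 32620 CPM, and Ltf at 6955 and 7664, 6145 and 6446, and 7049 CPM. Camp and Ltf were lower in both dKO XY libraries than in both control XY libraries, and Ngp overlapped. Such a split of 2 against 2 libraries has an exact permutation p of 0.333, so it is a description only. In the progenitor-like class Elane was at 7222 and 9400 CPM in control XY, against 5540 and 4081 in dKO XY, without overlap. Prtn3 was at 7669 and 10490 against 10440 and 6604 CPM, with overlap. These levels rest on 9, 4, 5 and 3 cells, with 0 to 753 Elane UMIs each. Cells with high Ngp and little Elane lay in control XY 1 (406 and 906 Ngp UMIs, 0 and 1 of Elane), dKO XY 1 (845 and 5) and dKO XY 2 (591 and 0). Their part in the Elane levels was not tested.

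The monocyte-like class was 3 clusters. One of 42 cells held S100a6 at 3087 CPM, Thbs1 (thrombospondin 1) at 2282, Fn1 (fibronectin) at 808 and Cd14 (the lipopolysaccharide co-receptor) at 515 CPM, with S100a8 and S100a9 at a median of 0.607% of UMIs. One of 34 cells held Isg15 at 221 CPM and 3517 CPM over the interferon response list, against 1660 and 2111 in the other clusters. One of 27 cells held more of the G2 and M phase list (3770 CPM, against 2335 and 1733) and F13a1, the A subunit of coagulation factor XIII, at 581 CPM. All 3 held Lyz2 (lysozyme) at 11380 to 20620 CPM and Ccr2 at 886 to 1020. A Lyz2 UMI was in 98 of the 103 cells, and the cells without one were all in the cluster of 34. In the same cluster a control XY 2 cell held 13 Lyz2 and 42 H2-Ab1 UMIs.

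The monocyte-like cells and the C1q-high macrophages differed in more than the C1q genes. Csf1r, the receptor of the macrophage growth factor, was at 263 CPM in all monocyte-like cells and 851 in macrophages. Mrc1, the mannose receptor, was at 0.553 CPM against 622, and the transcription factor Maf at 68.6 against 826 CPM. Lyz2 ran the other way, at 14020 to 18400 CPM in the 6 libraries of monocyte-like cells and at 990 to 1833 CPM in the macrophages of the 6 libraries, with no overlap, but Lyz2 was a marker by which the class was named above other myeloid cells. Because the monocyte-like class was itself a cluster, these are descriptions with no test.

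Levels of the monocyte genes overlapped between the XY groups. Lyz2 was at 16720 and 16550 CPM in control XY, against 14770 and 18400 in dKO XY and, in control XX, 14350 and 14020. Ccr2 was at 988 and 1027, 839 and 1266, and 942 and 411 CPM. The XY groups overlapped in both genes, and the control XX values for Lyz2 were below all 4 XY values, from 1 and 7 cells. S100a8 in this class varied more, at 5132 and 2973 CPM in control XY, against 6130 and 1877 in dKO XY and, in control XX, 0 and 16000.

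Chil1 differed between the genotypes in monocyte-like cells. It encodes chitinase-3-like protein 1, a secreted lectin of the chitinase family without enzyme activity that is stored in neutrophil granules, and lies at GRCm38 chr1:134182176-134190181 on the plus strand. The gene was singled out after its values were seen. No monocyte-like cell of control XY held a UMI of it (0 of 40 and 0 of 18), while 21 of 29 and 7 of 8 did in dKO XY and 0 of 1 and 5 of 7 in control XX. As levels these were 0 and 0 CPM in control XY, against 117 and 270 in dKO XY and, in control XX, 0 and 186. Both dKO XY libraries and the control XX library with more than 1 such cell thus held Chil1, and both control XY libraries held none, where 0 of 58 cells allows a share of cells with a UMI, not of cells that express the gene, of up to 5.17% (3 counts, with an exact upper limit of 6.16%). By group the share of cells with a UMI was 75.7% in dKO XY (58.8 to 88.2, exact binomial) and 62.5% in control XX (24.5 to 91.5), intervals that cover counting error over the pooled cells only and not the spread between libraries.

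In each monocyte-like cluster no control XY cell held a Chil1 UMI while some dKO XY cells did, counted over cells pooled from the libraries. Among the S100a6-high cells 0 of 27 in control XY, 11 of 11 in dKO XY and 4 of 4 in control XX held a Chil1 UMI. Among the F13a1-high cells it was 0 of 12 in control XY and 14 of 15 in dKO XY, and among the Isg15-high cells 0 of 19, 3 of 11 and 1 of 4. Most dKO XY cells of the Isg15-high cluster thus held none, and 10 of its 11 dKO XY cells came from dKO XY 1. Leaving out cells with a high doublet score gave 0 of 56, 27 of 36 and 4 of 5. The median monocyte-like cell held 15530 UMIs in control XY, 16310 in dKO XY and 15300 in control XX. Chil1 moved the same way at far lower levels in cells other than myeloid cells, where it was at 0.0781 and 0.0577 CPM in control XY, against 0.662 and 0.619 in dKO XY and, in control XX, 0.828 and 0.767. C1q-high macrophages held 0.742 and 0 CPM in control XY, against 2.40 and 1.54 in dKO XY and, in control XX, 0 and 0, so control XX did not follow there. These macrophage values are near the floor, where 1 UMI stood for 0.742 CPM in control XY 1. More Chil1 in dKO XY than in control XY was thus not limited to the monocyte-like cells. The part of free RNA in these values was not tested.

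In neutrophil-like cells Chil1 was at 488 and 537 CPM in control XY, against 470 and 416 in dKO XY and, in control XX 1, 424, with a UMI in all 16, 9 and 6 cells. The levels of the XY groups did not overlap. The absence of Chil1 UMIs in control XY was seen in monocyte-like cells and not in neutrophil-like cells of the same libraries, and whether the genotype difference itself differed between the classes was not tested. Its relative Chil3 (Ym1) was at 0 in the monocyte-like cells of every library.

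The fit that tested this took the monocyte-like and unnamed cells together, as an alternative added after seeing the data, with 13 to 47 cells in each XY library. With edgeR's quasi-likelihood test and Benjamini-Hochberg adjustment over the 6520 genes tested, 2 genes were called, which was 0.0307% of them. Chil1 had 145 UMIs in dKO XY and 0 in control XY, at least 59.8-fold higher when control XY is set at 3 counts over the group (edgeR adjusted p = 0.000315). Ccr9 (a chemokine receptor of lymphoid and plasmacytoid cells) was lower in dKO XY, at 51.6 and 61.0 CPM in control XY, against 2.46 and 6.81 in dKO XY (log2 fold change −3.82, edgeR adjusted p = 0.0465), but its UMIs came from 5 and 1 cells in control XY and 1 and 2 in dKO XY. Over all members Chil1 was at 81.8 and 52.2 CPM in control XY, against 75.7 and 122 in dKO XY and was not called (log2 fold change 0.44, edgeR adjusted p = 0.645).

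**Figure D4:**
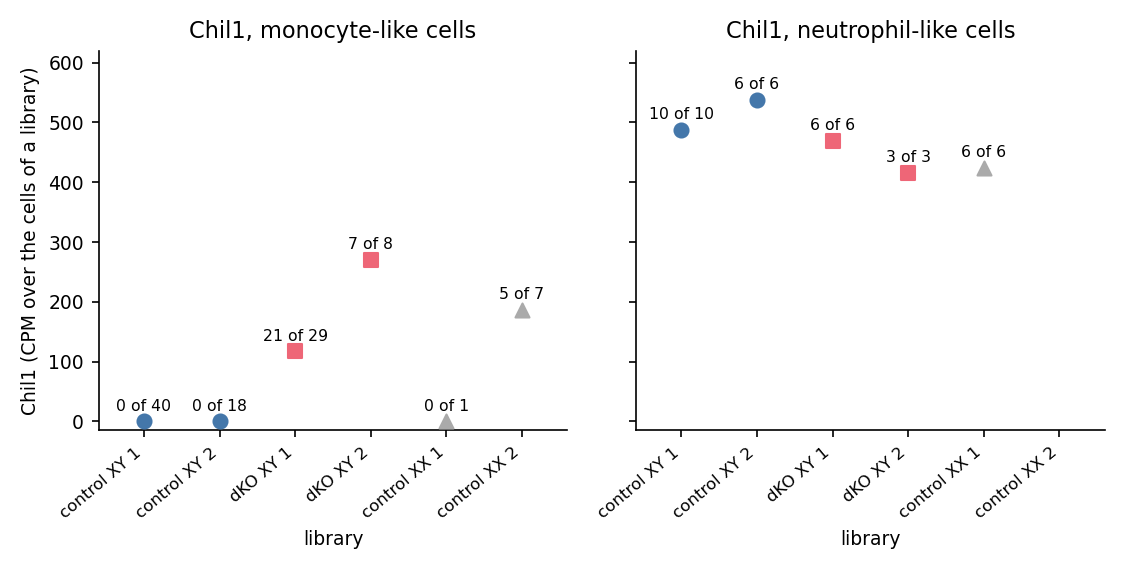
Each point is the Chil1 level (CPM, vertical axis) of the monocyte-like cells (left) or neutrophil-like cells (right) of 1 library, with the number of cells that held a Chil1 UMI beside it. Monocyte-like cells hold none in control XY and 117 and 270 CPM in dKO XY, while neutrophil-like cells hold 416 to 537 CPM in every library that had any.

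Mast cell-like cells held Cpa3 (carboxypeptidase A3) at 12800 CPM, Cma1 (mast cell chymase) at 16050, Tpsb2 (tryptase beta 2) at 3947, the stem cell factor receptor Kit at 632 and Il13 at 706 CPM. Cpa3 in these cells was at 10010 and 13760 CPM in control XY, against 13740 and 7853 in dKO XY and, in control XX 2, 14530, and the XY groups overlapped. Tpsb2 was at 1929 and 1932 CPM in control XY, against 2660 and 3225 in dKO XY and, in control XX 2, 7974, without overlap. Behind these values stand 3, 1, 10, 2 and 7 cells, and Tpsb2 has a near copy in Tpsab1, between which the split of reads is uncertain. Among members outside the cluster with gonadal transcripts, 1 cell held 175 of 186 Tpsb2 UMIs in control XY 1 and 222 of 223 in dKO XY 2.

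Basophil-like cells held Mcpt8 (a basophil serine protease) at 3601 CPM, Il6 at 1744 and the chemokines Ccl3 at 3753, Ccl4 at 1539 and Ccl9 at 1485 CPM. An Mcpt8 UMI was in 9 of the 14 cells. Of the basophil or eosinophil markers 3 of 6 passed (mean log2 fold 2.07). Of the mast cell markers 5 of 9 passed too (Cpa3, Ms4a2, Kit, Gata2 and Hdc, mean log2 fold 0.497). Basophil-like cells were also the highest class for Runx1, at 718 CPM. Mcpt8 in these cells was at 7343 and 2706 CPM in control XY, against 612 and 1049 in dKO XY, from 4, 7, 2 and 1 cells. Of these UMIs 1 cell held 474 of 528 in control XY 1 and 1 cell 296 of 385 in control XY 2, so the 2 control values rest on 1 cell each. Dendritic cell-like cells held the MHC class II genes H2-Aa at 7056 and H2-Eb1 at 5221 CPM and the invariant chain Cd74 at 12810, with Cd209a at 173 CPM and Irf8, a factor of dendritic cell development, at 810. H2-Ab1 in these cells was at 6049 and 5140 CPM in control XY, against 4301 and 2227 in dKO XY, from 10, 4, 3 and 1 cells.

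Genes that differed between dKO XY and control XY over all members were mostly those of mast cells, basophils, dendritic cells and the gonad. Summed over the members of each library, 16 of 10787 genes were called (0.148%), 9 higher in dKO XY (0.0834%) and 7 lower (0.0649%), by edgeR's quasi-likelihood test at an adjusted p under 0.05, and 1184 genes had an unadjusted p under 0.05. The largest share of the UMIs lay in the cluster with gonadal transcripts for 6 of the called genes, in dendritic cell-like cells for 3, mast cell-like for 3, basophil-like for 2 and monocyte-like and neutrophil-like for 1 each, though no class held most of those of Lilr4b (42.7% in basophil-like cells) and Nabp1 (26.9% in monocyte-like and 26.3% in basophil-like cells). These are classes whose cell numbers differed between the libraries, as given above, and how much of each call came from cell numbers was not tested. Leaving out the cells with a high doublet score left 0 calls in edgeR among 8569 genes tested (596 at an unadjusted p under 0.05). Whether fewer cells or smaller differences gave this was not tested. Leaving out the cluster with gonadal transcripts left 2. Without that cluster log2 fold changes of genes no longer called included −3.49 for Chil3 (edgeR adjusted p = 0.0612), −2.14 for H2-Ab1, 1.48 for Cpa3 and 2.71 for Tpsg1, while Kctd14 went from 2.73 to 0.71, Sdc4 from 2.41 to 1.25, RP23-415L22.2 from 3.06 to 1.74 and Mcpt2 from 5.10 to 3.44.

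The mast cell proteases Cpa3, Cma1, Tpsg1 and Mcpt2 were called higher in dKO XY, and Tpsb2, Tpsab1 and Mcpt4 were not called (log2 fold change 2.91, 2.80 and 2.17, edgeR adjusted p = 0.0563, 0.248 and 0.602). Cpa3 was at 494 and 453 CPM in control XY, against 1885 and 1314 in dKO XY and, in control XX 2, 8087 (log2 fold change 1.71 ± 0.193 SE, edgeR adjusted p = 0.0316), with 80.1% of its UMIs in mast cell-like cells. Cma1 was at 305 and 556, 2120 and 2750, and 12990 CPM (2.47 ± 0.258, edgeR adjusted p = 0.0232). Tpsg1 (tryptase gamma 1) was at 10.5 and 8.24, 105 and 51.4, and 410 CPM (3.05 ± 0.372, edgeR adjusted p = 0.0423). In all 3 genes control XX 2 lay above dKO XY, which lay above control XY, while control XX 1, with no mast cell-like cell among its 7 members, held no UMI of them. A Tpsg1 UMI was in 2 and 1 cells in control XY, against 12 and 2 in dKO XY. For Cma1, 1 mast cell-like cell held 803 UMIs in control XY 2. In dKO XY 2, 1 cell of the cluster with gonadal transcripts held 1185. Within mast cell-like cells the XY groups overlapped in both genes. Cma1 was there at 6958 and 23500 CPM in control XY, against 15440 and 12250 in dKO XY. Tpsg1 was at 238.5 and 351.3 CPM, against 673.5 and 216.9. Mcpt2 (mast cell protease 2) was at 2.27 and 0.687 CPM in control XY, against 70.0 and 48.7 in dKO XY and, in control XX 2, 67.9 (5.10 ± 0.436, edgeR adjusted p = 0.0131), but 1 cell held 70.4% of its UMIs and the cluster with gonadal transcripts 73.5%. Of the 9 mast cell list genes tested 2 rose (0.0834% of all genes did) and none fell, and 7 had a positive fold change, at a median log2 fold change of 1.71, beside −0.01 over all genes.

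The basophil protease Mcpt8 and 3 dendritic cell genes were lower in dKO XY. Of the 4 basophil or eosinophil genes tested only Mcpt8 was called, and 2 had a positive fold change (median log2 fold change 0.06). A single cell held 474 of the Mcpt8 UMIs in control XY 1 and another held 296 in control XY 2. Mcpt8 was at 240 and 350 CPM in control XY, against 22.2 and 16.2 in dKO XY and, in control XX 2, 19.0 (log2 fold change −3.90 ± 0.253 SE, edgeR adjusted p = 0.00312), with 84.9% of its UMIs in basophil-like cells and 42.5% in 1 cell. H2-Ab1 was at 626 and 368, 102 and 71.7, and 8.14 CPM (−2.55 ± 0.314, edgeR adjusted p = 0.0423) and Cd74 at 1504 and 882, 290 and 194, and 220 CPM (−2.35 ± 0.313, edgeR adjusted p = 0.0485). Neither group overlapped the other in these genes, which were called on the same values. H2-Eb1 was at 605 and 358 CPM in control XY, against 109 and 66.3 in dKO XY (−2.48, edgeR adjusted p = 0.0485), and 89.7% of the UMIs of H2-Ab1 lay in dendritic cell-like cells. All 7 MHC class II genes tested had a negative fold change, 3 of them called, at a median log2 fold change of −2.35, beside 0.148% called over all genes and a positive fold change in 5342 of 10787.

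Cma1, Mcpt2 and Mcpt8 lie within 144 kb of chromosome 14 (GRCm38 chr14:55941451-56085273), in a locus of serine proteases that with Ctsg, Mcpt4 and Gzmb spans 321 kb. Within this one stretch Cma1 and Mcpt2 were higher in dKO XY and Mcpt8 was lower. Cma1 had 77.15% of its UMIs in mast cell-like cells and Mcpt8 84.95% in basophil-like cells. Mcpt2 had 73.5% in the cluster with gonadal transcripts, where 1 cell held 178 of its 253 UMIs. The other 26.5% of Mcpt2 UMIs were in mast cell-like cells. Chil3 was the one gene called from the lists of neutrophil granule proteins, at 129 and 275 CPM in control XY, against 14.3 and 20.3 in dKO XY and, in control XX 2, 0 (log2 fold change −3.66 ± 0.389 SE, edgeR adjusted p = 0.0232). Its UMIs lay 59.1% in neutrophil-like and 37.7% in progenitor-like cells, with 31.9% in 1 progenitor-like cell of control XY 2. In neutrophil-like cells Chil3 was at 1037 and 1527 CPM in control XY, against 378 and 312 in dKO XY and, in control XX 1, 26.1, with a UMI in 4 of 10 and 4 of 6, 2 of 6 and 2 of 3, and 2 of 6 cells.

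Kctd14, Dazl and Gng13, also higher over the members of dKO XY, were at higher levels in the other cells of its libraries too. Kctd14 was at 29.5 and 27.5 CPM over the members of control XY and 138 and 267 in dKO XY (log2 fold change 2.73 ± 0.339 SE, edgeR adjusted p = 0.0423), with 71.5% of its UMIs in the cluster with gonadal transcripts. Without that cluster its log2 fold change was 0.71 (edgeR adjusted p = 0.601). Kctd14 was at 57.7 and 93.3 CPM in the other cells of control XY and 414 and 595 in those of dKO XY. Dazl, a germ cell RNA-binding protein, had 151 UMIs in dKO XY members and 1 in control XY (ratio 163, 28.8 to 6467, an exact Poisson interval for counting error only), with 44.2% of its UMIs in 1 cell, beside 3.13 and 2.39 CPM in the other cells of control XY and 84.1 and 80.0 in those of dKO XY. Gng13 had 75 and 0 UMIs (at least 26.9-fold higher, with control XY at 3 counts over the group), beside 2.76 and 2.72, and 41.6 and 39.2 CPM in the other cells. Dazl and Gng13 were named after their values were seen. The gonadal somatic and germ cell list summed to 1422 and 1169 CPM in the members of control XY, against 1122 and 449 in dKO XY and, in control XX, 23 and 565, and to 1410 to 8100 CPM in the other cells.

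The remaining called genes were named after their values were seen (log2 fold changes in brackets). Sdc4 (2.41) and RP23-415L22.2 (3.06) were higher in dKO XY, with most UMIs in the cluster with gonadal transcripts. Lilr4b (−1.96), a receptor of myeloid cells, and Nabp1 (−1.66), a single-stranded DNA-binding protein, were both lower. Lilr4b UMIs were spread over 105 cells and those of Nabp1 over 161, and the highest cell held 10.1% and 7.07% of them. Nabp1 was at 89.5 and 110 CPM in control XY, against 35.4 and 27.1 in dKO XY and, in control XX 2, 48.9, and Lilr4b at 56.3 and 71.4, 18.5 and 13.5, and 59.7 CPM. The groups did not overlap in either gene, and both genes were called on these same values.

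**Figure D5:**
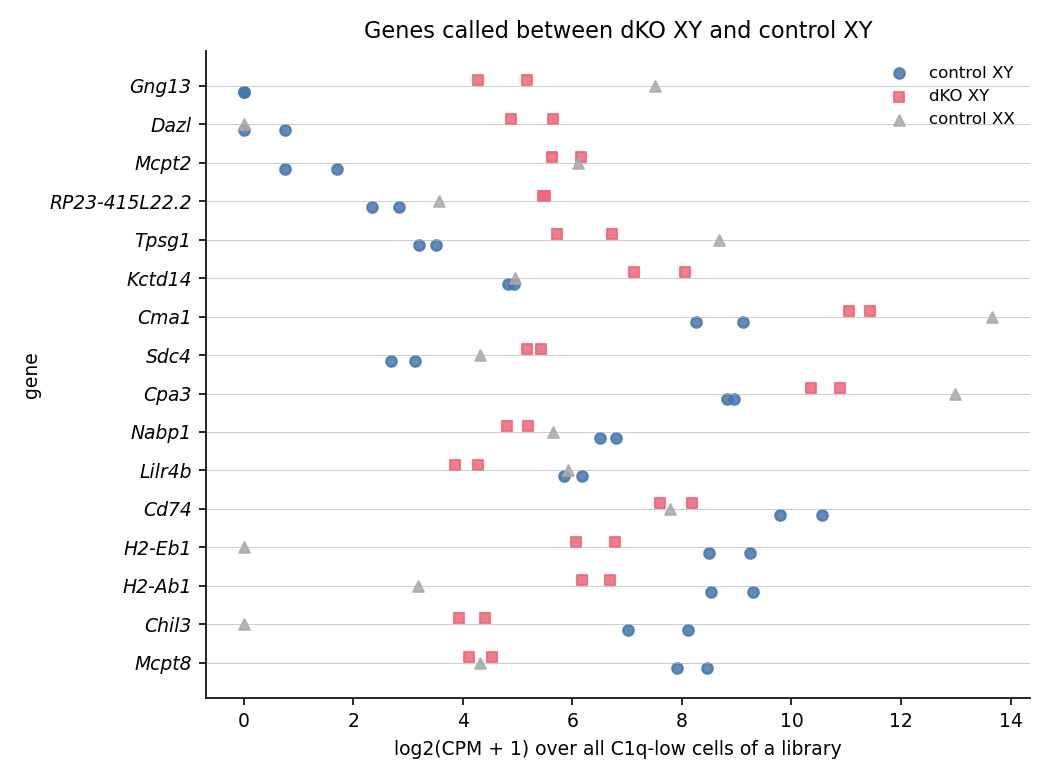
Each point is log2(CPM + 1) of 1 of the 16 called genes (rows, ordered by fold change) over the C1q-low myeloid cells of 1 library, for control XY, dKO XY and the control XX library that had enough cells. The genes were called on these same values, so the lack of overlap between control XY and dKO XY points in every row follows from that choice. The control XX point lies to the right of both dKO XY points for Cma1, Cpa3, Tpsg1, Gng13, Lilr4b and Nabp1.

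The genes that stand for the cells' name did not pass the test. S100a8 over all members was at 24950 and 15290 CPM in control XY, against 10600 and 12020 in dKO XY and, in control XX, 102700 and 4438 (log2 fold change −0.89 in dKO XY, edgeR adjusted p = 0.252). S100a9 (−0.80, adjusted p = 0.312), Stfa1 (−0.77, 0.355), Elane (−0.67, 0.194), Lyz2 (−0.46, 0.462) and Ccr2 (−0.40, 0.576, all edgeR) were not called either. The 2 control XX libraries lay farthest apart, and 6 of the 7 members of control XX 1 were neutrophil-like. Of the 15 neutrophil genes tested none was called and 1 had a positive fold change (median −0.79), and of 5 stefin genes none was called (median −0.76). Over all genes 0.148% were called and 5342 of 10787 had a positive fold change, so no call in lists this short says little. The part of neutrophil-like cell numbers in these fold changes was not tested.

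Beside the 0.148% called over all genes, marker lists of the other classes held these calls. Of 8 dendritic cell genes 3 fell (median log2 fold change −2.44), of 4 basophil or eosinophil genes 1 fell (0.06), of 9 monocyte genes 1 fell, which was Chil3 (−0.40), and of 14 gonadal genes Dazl rose (−0.18). None was called of 7 granulocyte progenitor genes (−0.21), 8 macrophage genes (−0.44) and 7 NK or lymphoid genes (−1.0).

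None was called, beside 0.148% of all genes, of 14 genes of DAP12 and Fc receptor signalling (median log2 fold change −0.53), 6 of the NADPH oxidase that makes superoxide (−0.53), 12 myeloid transcription factors (−0.49), 7 growth factor receptors (−0.41), 6 chemokine receptors (−0.47), 7 chemokines (−1.40), 9 interferon response genes (−0.99) and 10 stress and dissociation genes (−0.75), beside the median of −0.01 over all genes. All of these medians lay below that of all genes. Cell cycle lists lay near it, at 0.09 for 24 S phase genes and 0.08 for 34 G2 and M phase genes, with none called. The erythroid list had a median of 1.96 over 4 genes and the endothelial list 0.83 over 6, with none called.

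Receptors for the deleted hormones were sparse in the members. Amhr2, the type 2 receptor of AMH, was at 1.82 and 6.87 CPM in control XY, against 29.4 and 42.0 in dKO XY and, in control XX, 0 and 40.7, did not overlap between the XY groups and was not called (log2 fold change 3.05, edgeR adjusted p = 0.0759). In cells other than myeloid cells Amhr2 moved the same way, at 15.6 and 24.4 CPM in control XY, against 84.3 and 86.7 in dKO XY and, in control XX, 228 and 118. Among the members it was at 46.8 CPM in the cluster with gonadal transcripts, 7.20 in monocyte-like cells and 4.86 in neutrophil-like cells. The activin receptors Acvr1b and Acvr2b were at 8.82 and 8.03 CPM over all members. In control XY mean Acvr1b was higher in members than in the other cells, at 9.58 against 4.89 CPM. It was at 7.71 against 4.73 in dKO XY and 6.92 against 6.26 in control XX. Acvr2b was lower in members, at 8.56 against 14.7, 8.50 against 20.6 and 5.43 against 21.7 CPM in the same order. Tgfbr2, a receptor of TGF-beta, was at 22.2 CPM over all members. Its partner Tgfbr1 was at 44.96 and 48.1 CPM in control XY, against 28.2 and 23.0 in dKO XY and, in control XX, 17.1 and 19.0, did not overlap between the XY groups and was not called (log2 fold change −0.87, edgeR adjusted p = 0.252). The monocyte-like cells of control XY held Tgfbr1 at 85.9 and 93.0 CPM, against 43.4 and 28.4 in those of dKO XY. Of 15 genes of TGF-beta family receptors and their signalling none was called (median −0.31). Id2 was highest in dendritic cell-like cells, at 1527 CPM.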

How the data were processed

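Gonads of E15.5 mice were measured by 10x Genomics single-cell RNA sequencing in 6 libraries, 2 per labelled group. The deposited files hold raw counts of UMIs per gene and barcode, which the authors made with Cell Ranger (mm10, per the processing notes) after correcting for swapped barcodes, and analysed with Seurat; a barcode removed or kept there sets which cells exist here. Barcodes with over 2500 and under 9000 genes, under 25% mitochondrial and under 20% Hbb- UMIs were kept, 39350 in all. The gene minimum left out 47 barcodes with 1000 to 2500 genes that met the rest of the rule. S100a8 and S100a9 took 1% or more of UMIs in 15 of them (31.9%) and in 85 of the 290 members (29.3%). The share was 43.3% of the 30 barcodes with 1500 to 2500 genes and 11.8% of the 17 with 1000 to 1500.

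Members were clustered with scanpy 1.11.5 (2000 variable genes without sex-linked genes, 15 components, 10 neighbours, Leiden resolution 1). A class name needed 3 markers, each in 25% of cells and 1.5-fold above the other myeloid cells, C1q-high macrophages included, a background chosen after a first naming among members alone; the class with the highest mean fold was taken, and a cluster with more markers of another class than of its own among its 10 leading genes stayed unnamed. Doublets were scored with Scrublet; its own threshold marked between 4 and 79 cells a library, so no cell was removed and the top 8% of scores were left out as an alternative. Member counts were summed per library and tested with edgeR 4.0.16 (filterByExpr, TMM, quasi-likelihood, R 4.3.3) on the 5 libraries with at least 10 members, with 1 spread shared by all groups. Control XX 1, with 7 members, was left out, so no comparison with control XX and no test within a class was run. DESeq2 1.42.0 was an alternative. p-values rest on 2 libraries a group. Wherever 2 groups of 2 libraries are said not to overlap, the exact permutation p is 0.333 at best. How many of all genes did not overlap was not counted. The method was tested on simulated data. Named genes were the 5 called genes with the largest change in each direction at a mean log2 CPM of 5 or more, and others are said to be chosen after their values were seen. The members and gene lists were chosen with earlier results of these data known. Positions are GRCm38 (GENCODE M21), promoters RefSeq GRCm38.p6 (windows that reach far into a GENCODE exon are not printed).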

Additional observations from a re-analysis of the deposited data

How the results depend on the processing

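The 16 genes called over all members became 34 with DESeq2, 554 without a filter on low counts, 8 with C1q under 2 UMIs, 0 without cells with a high doublet score (edgeR; 596 genes at an unadjusted p under 0.05), 2 without the cluster with gonadal transcripts (Mcpt8, and Tpsb2 at a log2 fold change of 2.32), 2 in monocyte-like and unnamed cells alone and 38 without neutrophil-like and progenitor-like cells. The last 3 were chosen after seeing the data. In the fit without the gonadal cluster, 1 cell held 175 of 186 Tpsb2 UMIs in control XY 1, 66 of 66 in control XY 2 and 222 of 223 in dKO XY 2. Leaving out 1 library gave between 15 and 120 genes (109 without control XY 1, 97 without control XY 2, 120 without dKO XY 1), where the lone library of an arm is assumed to vary like the others; the causes of these changes were not tested. The replicate block gave 21 genes, of which 13 were among the 16. Same-numbered libraries did not deviate together (correlation −0.0837), so the numbers were not taken as pairs. Chil1 in monocyte-like and unnamed cells was called with DESeq2 (adjusted p = 7.28e-05). It was also called in edgeR without a filter on low counts (adjusted p = 8.81e-30) and with the replicate block (adjusted p = 0.0143). The fit without a filter called 68 genes where the main fit called 2, so the size of its p is not read as strength. Leaving out 1 XY library gave log2 fold changes of 9.155 to 9.525. Other C1q and gene limits and leaving out cells with a high doublet score were not run for this fit. The share of members among all cells, dKO XY minus control XY, was −0.279 percentage points and ran from −0.632 to 0.0732 when 1 library was left out, turning positive without control XY 1 (0.0732) and without dKO XY 2 (0.0264). The neutrophil-like share of members, −1.13 points, ran from −3.45 to 1.19, turning positive without dKO XY 1. Both kept their direction under the other alternatives, the second at −0.877 to −4.59 points. For the second the XY groups separated narrowly under 2 of them (no cells with a high doublet score, and over 1500 genes). Calling cells by S100a8 and S100a9 at 1% or more of UMIs gave XY shares of 25.4% to 31.6% and 18.8% in control XX 2. Tests within a class and against control XX were not run, since libraries held fewer than 10 cells. Libraries of 7 to 95 members limit which differences could be detected.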
